A study of Rattus norvegicus with 12 samples.

Results

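The genes described here are 9 genes of necroptosis and of the inflammasome, Ripk1, Ripk2, Ripk3, Mlkl, Casp1, Casp8, Nlrp3, Pycard and Nlrp6, in the colon of rats. Their probes were found by the gene name in the array files, and 9 of the 30367 probes of the array carry the name of 8 of the 9 genes, 2 of them that of Ripk1. No probe carries the name Mlkl, and that gene is not analysed here. The genes were chosen from results in which their levels in Groups C, M and D were known, so that their levels, their differences and the counts of those that passed a threshold are a description and not a test of these genes.

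Colonic tissue was taken on day 60 from male Wistar rats, and the RNA of each of 12 rats was hybridized to an array of its own with the dye Cy3. Group C (rats C1 to C4) was normally handled and received placebo, which was saline, by gavage from day 3 to day 60. Group M (M5 to M8) underwent neonatal maternal separation (NMS), in which pups were kept apart from the dam for 180 min a day from day 2 to day 14, and received placebo over the same days. Group D (D9 to D12) underwent the same NMS and received VSL#3, a mixture of probiotic bacteria, from day 3 to day 60. All rats of the 3 groups underwent colorectal distension (CRD), so that a colon without CRD is not among them, and Group D has no counterpart that received VSL#3 without NMS. The methods of the study analysed 11 arrays and its heat maps show D9 to D11. The differences below rest on these 11 arrays unless D12 or all 12 arrays are named.

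Necroptosis is a regulated form of cell death in which the kinases RIPK1 and RIPK3 bind each other below receptors such as the TNF receptor, and RIPK3 phosphorylates MLKL, which then breaches the plasma membrane. Caspase-8 cleaves both kinases and holds this route back. Inflammasomes are complexes in which a sensor such as NLRP3 or NLRP6 joins, through the adaptor ASC that Pycard encodes, with caspase-1, the protease that matures interleukin-1 beta and interleukin-18 and cleaves gasdermin D. In the gut NLRP6 is known from epithelial cells, where it has been studied for its role in mucus release and in the response to microbes.

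The probes were 60 bases long, and the files place them on the rn4 build, for which no annotation of exons was used here. The sequences that carry the main values are shown so that a reader can see which part of each transcript was read. The Ripk3 probe lies at chr15:33947406-33947464 on the minus strand, and 30 of its bases are given, with the letters AATAAA in capitals, the hexamer known from polyadenylation signals. These letters were searched on both strands and are held, as printed, by 8.39% of all probes of the array and on either strand by 11%. The probe of Pycard lies at chr1:187276921-187276980 on the minus strand, that of Nlrp6 at chr1:201091803-201091862 on the plus strand and that of Casp1 at chr8:2032917-2032976 on the plus strand.
Ripk3 (30 bases from base 29): aaatagagtgaaAATAAAagcactttctaa
Pycard: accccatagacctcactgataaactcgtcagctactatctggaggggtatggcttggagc
Nlrp6: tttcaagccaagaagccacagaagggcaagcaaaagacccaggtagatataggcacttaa
Casp1: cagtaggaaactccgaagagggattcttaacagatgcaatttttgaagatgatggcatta
The probe of Casp8 spans 7087 bases of the genome (chr9:57428119-57435205) and that of Nlrp3 spans 205 bases (chr10:45873953-45874157), each more than its own 60 bases. The 2 probes of Ripk1 lie at chr17:37184053-37184112 and chr17:37185923-37185982, and that of Ripk2 at chr5:30715189-30715248, all on the minus strand.

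Each array had 62976 spots, of which 4259 were controls, and 75.5% to 77.5% of the spots were well above background. Arrays of the same group correlated at 0.967 to 0.995 over the probes well above background on all arrays. All arrays of Groups C and M came from 1 slide and all arrays of Group D from another, so that slide and group cannot be told apart in a comparison with Group D, whereas Group M vs Group C was measured within 1 slide. On that slide Group C lay in array row 1 and Group M in array row 2, so that row and group cannot be told apart there. The labels name no litters, and the errors given measure the spread between these rats. Levels are log2 signals relative to the 75th percentile of the array (a level of 0 equals that percentile), a difference is a difference of such levels, and no probe is set against another. Each of the 9 probes gave a signal well above background in all rats, apart from Nlrp3 in D9. In whole tissue, fewer cells of a type and less RNA per cell cannot be told apart.

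Ripk3, the kinase that commits a cell to necroptosis, was the member with the higher level in Group M. The log2 signal was -1.30, -0.52, -1.12 and -1.54 in rats C1 to C4. In rats M5 to M8 it was 0.34, -0.90, 1.11 and 0.50. In rats D9 to D11 it was -0.53, -1.12 and -1.20, and in D12 it was 0.74. The rats M5, M7, M8 and D12 therefore stood above all others, whereas M6 lay among the rats of Group C, and the ranges of Groups C and M overlapped. The mean level was -1.12 ± 0.43 (SD, n = 4) in Group C, 0.26 ± 0.84 (SD, n = 4) in Group M and -0.95 ± 0.37 (SD, n = 3) in Group D. Group M was higher than Group C by 1.38 ± 0.39 (log2 difference with the standard error of limma), which is 2.60-fold. Group D differed from Group M by -1.22 ± 0.42 and from Group C by 0.17 ± 0.42. With D12 the difference of Group D from Group M was -0.79 ± 0.49, and that from Group C was 0.59 ± 0.49.

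**Figure D1:**
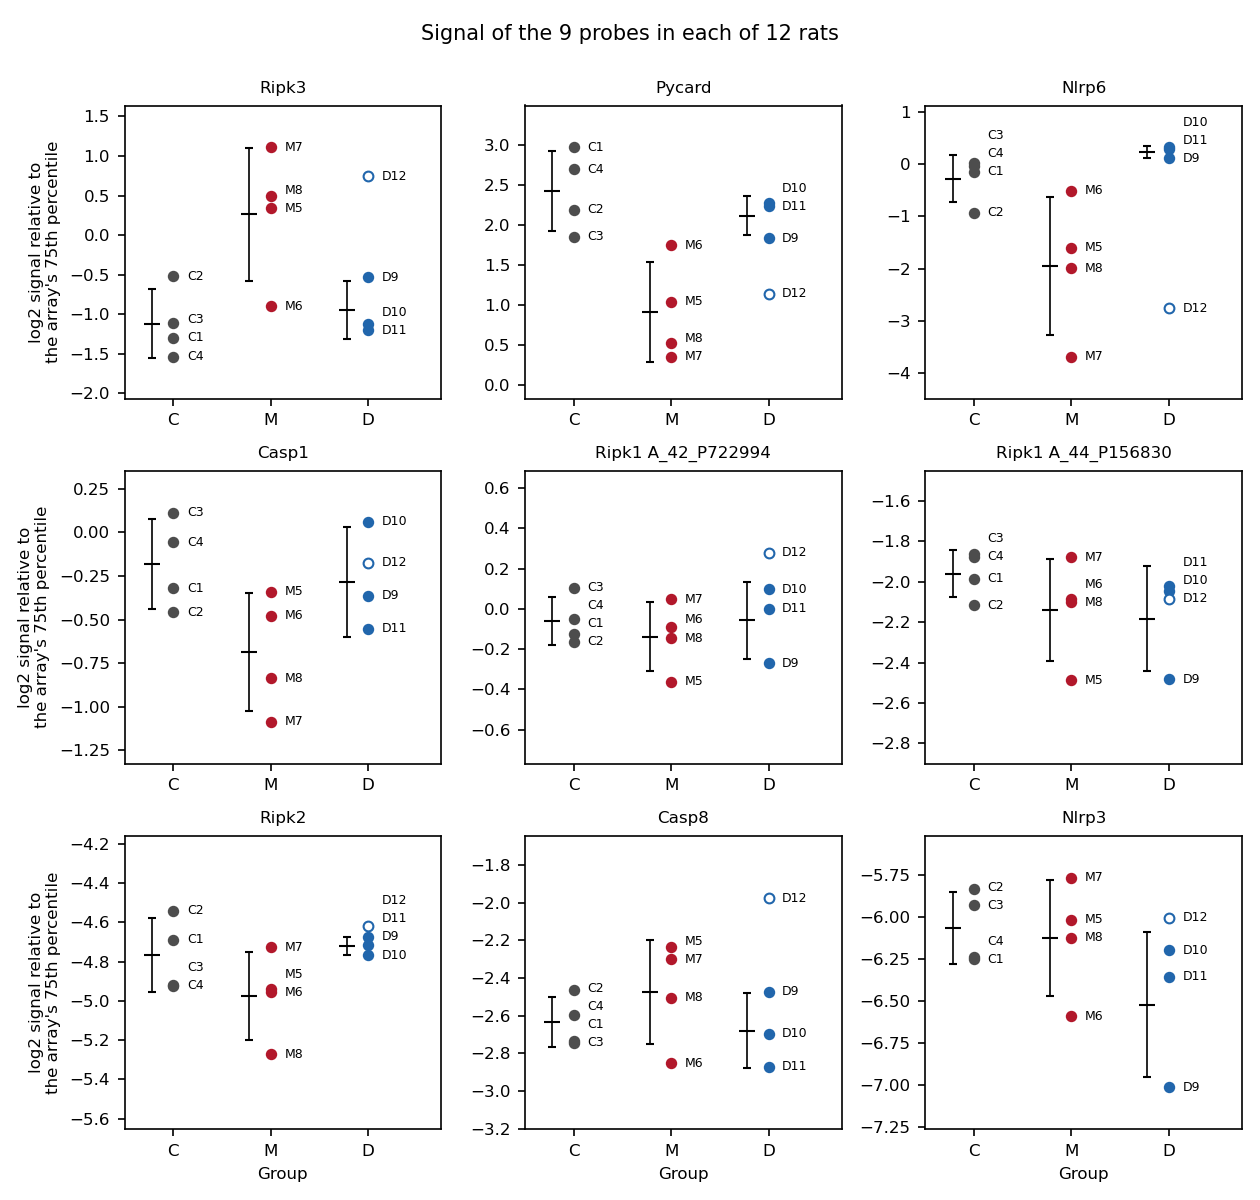
Log2 signal of the 9 probes relative to the 75th percentile of the array (vertical axis) in each of 12 rats by group (horizontal axis). Points are rats, the open point is D12, and the bars give the mean and SD of the 11 other rats. The rats M5, M7, M8 and D12 stand highest for Ripk3 and lowest for Pycard and Nlrp6, and M6 stands apart from the others of Group M at all 3 probes.

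Pycard encodes ASC, the adaptor that links inflammasome sensors to caspase-1, and its level was lower in Group M. The log2 signal was 2.97, 2.19, 1.85 and 2.69 in rats C1 to C4, and 1.04, 1.74, 0.35 and 0.53 in rats M5 to M8. In Group D it was 1.83, 2.27 and 2.23 in D9 to D11 and 1.14 in D12. Every rat of Group M lay below every rat of Group C and below D9 to D11, with a small gap between M6 and both C3 and D9. Group M was lower than Group C, with a log2 difference of -1.51 ± 0.32, a 2.85-fold lower level. Group D was higher than Group M by 1.19 ± 0.35, and differed from Group C by -0.31 ± 0.35. With D12 in Group D, whose level fell among those of Group M, the difference from Group M was 0.95 ± 0.36.

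Nlrp6, the sensor of the 2 that is known from epithelium, varied most between the rats. Its log2 signal was -0.15, -0.93, 0.02 and -0.05 in rats C1 to C4. In Group M it was -1.61, -0.51, -3.69 and -1.99 in rats M5 to M8. In Group D it was 0.11, 0.32 and 0.29 in D9 to D11 and -2.76 in D12. The 3 rats D9 to D11 were above all rats of both other groups, M6 was above the lowest rat of Group C, and D12 lay between M7 and M8. Group M was lower than Group C, at -1.67 ± 0.54, or 3.18-fold, and its SD of 1.32 was larger than that of Group C, 0.44, and that of D9 to D11, 0.11. Group D was higher than Group M by 2.19 ± 0.58, or 4.55-fold, and with D12 by 1.44 ± 0.76. Group D differed from Group C by 0.52 ± 0.58, and with D12 the sign of that difference turned, at -0.23 ± 0.76.

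Casp1, the protease of the inflammasome, was at -0.32, -0.46, 0.11 and -0.06 in rats C1 to C4 and at -0.34, -0.48, -1.09 and -0.84 in rats M5 to M8. In Group D it was at -0.36, 0.06 and -0.55 in D9 to D11 and at -0.17 in D12. The rats M7 and M8 were the lowest, and the ranges of all 3 groups overlapped. The log2 difference of Group M from Group C was -0.51 ± 0.20, that of Group D from Group M 0.40 ± 0.22 and that of Group D from Group C -0.11 ± 0.22, all of them under 2-fold.

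Ripk1, the partner kinase of Ripk3, was read by 2 probes, and both gave differences under 2-fold. The probe A_42_P722994 lay between -0.36 and 0.28 over the 12 rats, and its log2 difference of Group M from Group C was -0.08 ± 0.12. The probe A_44_P156830 lay between -2.49 and -1.87, and its difference was -0.18 ± 0.15. The 2 probes gave differences of 0.08 ± 0.13 and -0.04 ± 0.16 for Group D vs Group M. For Group D vs Group C the second of them gave -0.22 ± 0.16.

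Casp8, the protease that restrains necroptosis, had log2 signals from -2.74 to -2.46 in Group C, from -2.85 to -2.23 in Group M and from -2.87 to -2.47 in D9 to D11. Its highest level of all rats was that of D12, -1.98. Group M differed from Group C by 0.16 ± 0.15 and Group D from Group M by -0.21 ± 0.16, with overlapping ranges. Ripk2, the kinase below the bacterial sensors NOD1 and NOD2 and not part of necroptosis, lay between -5.27 and -4.54 in all rats. Its difference was -0.21 ± 0.13 for Group M vs Group C and 0.26 ± 0.14 for Group D vs Group M.

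Nlrp3, the best known of the inflammasome sensors, was close to background. The log2 signal was between -6.25 and -5.83 in Group C, between -6.59 and -5.76 in Group M and between -7.01 and -6.20 in D9 to D11, and the lowest value, that of D9, was not well above background. The difference was -0.06 ± 0.22 for Group M vs Group C, -0.40 ± 0.24 for Group D vs Group M and -0.46 ± 0.24 for Group D vs Group C. D12 was at -6.00, above D9 to D11. With a normexp background correction, which draws dim probes together, the differences of Group D from Groups M and C were -0.03 and -0.09.

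**Figure D2:**
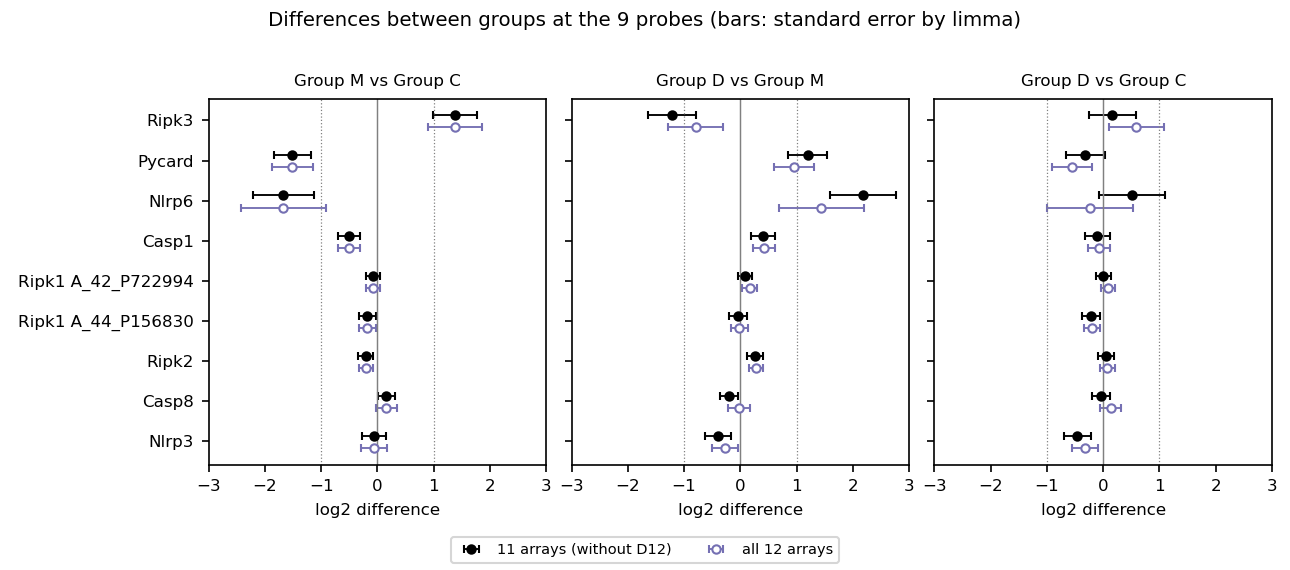
Log2 difference (horizontal axis) of the 9 probes (vertical axis) in the 3 comparisons. Points are estimates of limma, bars standard errors, filled points the 11 arrays without D12 and open points all 12 arrays; dotted lines mark a 2-fold difference. Ripk3, Pycard and Nlrp6 lie beyond 2-fold in the left and the middle panel and the other probes do not; with all 12 arrays the differences of Ripk3 and Pycard between Groups D and M come to less than 2-fold.

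None of the 9 probes was called by limma, which here means an adjusted p of at most 0.05 over all probes with a change of at least 2-fold. In Group M vs Group C, 0 of the 9 probes were called, where 0.168% of all probes were. At the nominal threshold, which is a limma p of 0.05 or less without adjustment, there were 4 of them, Ripk3 with the higher level and Casp1, Pycard and Nlrp6 with the lower, beside 22.7% of all probes. The study's methods ask that an analysis of variance and Tukey's test both reach 0.05, without adjustment over the probes, and that the means differ at least 2-fold. This criterion called 2 of the 9, Ripk3 and Pycard, and 2.33% of all probes, and with all 12 arrays it called 1, Pycard, and 1.56% of all probes. Only Pycard had groups that did not overlap, and 9.25% of all probes had. These counts are a description, since the genes were chosen with these comparisons known.

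Between Groups D and M, 0 of the 9 probes were called by limma, and 0.125% of all probes were. At the nominal threshold there were 3, with Ripk3 lower and Pycard and Nlrp6 higher, beside 21.6% of all probes. The criterion of the methods called 2, Pycard and Nlrp6, and 2.65% of all probes. The groups did not overlap for the same 2, as for 16% of all probes. With all 12 arrays the criterion called 0 of the 9 in this comparison, where it called 0.948% of all probes, and Pycard was the 1 probe at the nominal threshold, where 12% of all probes were. Between Groups D and C, 0 of the 9 were called by limma, 0 by the criterion of the methods and 0 at the nominal threshold, beside 0.00659%, 0.366% and 5.98% of all probes. Nlrp6 alone had groups that did not overlap, and 7.6% of all probes had. The comparisons share groups (Group M is in the first and the second of them), so that the differences of a gene in them are not independent.

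Leaving out 1 rat, M6, changed the calls, over the whole array as well as at these probes. Without M6, limma called 3 of the 9 probes between Groups M and C and 3 between Groups D and M, in both cases Ripk3, Pycard and Nlrp6, and it then called 5.86% and 6.51% of all probes. The log2 difference of Ripk3 between Groups M and C was 1.77 without M6, and without M7 the change was the smallest, 2.14-fold. Between Groups D and M its log2 difference was -1.60 without M6 and -0.93, which is under 2-fold, without M7. The log2 difference of Pycard between Groups M and C was -1.79 without M6 and -1.32 without M7, and that of Nlrp6 was -2.15 and -1.09. The direction of these differences did not turn for any rat left out in either comparison. Between Groups D and C the difference of Ripk3 turned to -0.05 without D9. Array quality weights, which give less weight to arrays that depart from their group, also led to 3 calls between Groups M and C and to 3 between Groups D and M, where 6.94% and 6.9% of all probes were called.

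**Figure D3:**
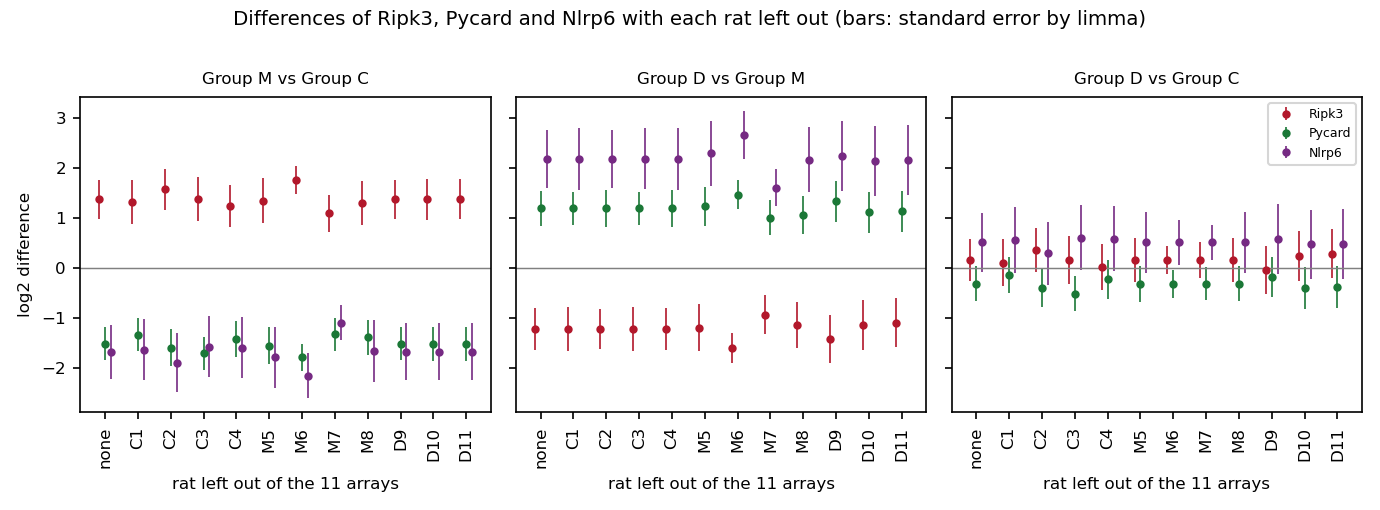
Log2 difference (vertical axis) of Ripk3, Pycard and Nlrp6 in the 3 comparisons with none or each of the 11 rats left out (horizontal axis). Points are estimates and bars standard errors of limma. The differences of Group M from Group C and of Group D from Group M are farthest from 0 without M6 and nearest to 0 without M7, and those of Group D from Group C stay near 0.

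Other genes of the same routes were described by 4 lists of 77 genes, of which 63 had a probe, each by the probe of the highest mean signal. Between Groups M and C, 14 of the 63 genes were higher and 10 lower at the nominal threshold, together 38.1%, beside 9.86% and 12.9% of all probes. Between Groups D and M, 7 were higher and 17 lower, beside 11.8% and 9.85% of all probes, and with all 12 arrays these 24 became 10. Between Groups D and C, 0 were higher and 4 lower, beside 3.15% and 2.83%. All probes include many dim ones, so the detected probes, bright enough in each rat of a group, are the closer comparison. In either direction 30.2%, 28.3% and 7.08% of the detected probes were at the threshold in the 3 comparisons in that order. For the 63 genes these shares were 38.1%, 38.1% and 6.35%. Whether the genes differ from the detected probes was not tested. After adjustment over all probes 1 gene, Il1rap, passed in the first of these comparisons, and 1, again Il1rap, in the second, so that the other genes named below are given with adjusted p values above 0.05. For Group D vs Group C 0 passed by limma, 4 were at the nominal threshold and 0 met the criterion of the methods. The median log2 difference of the 63 genes was 0.0048, -0.11 and -0.067 in the 3 comparisons in that order, and that of all probes -0.014, 0.022 and -0.00025.

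Of the death receptor and necroptosis genes, 24 of 27 were measured, and in Group M vs Group C 5 were higher and 3 lower at the nominal threshold. Together these were 33.3%, beside 22.7% of all probes and 30.2% of the detected probes. Tnfrsf10b, a receptor for the ligand TRAIL, was higher by 1.18 ± 0.28 on the log2 scale (adjusted p = 0.098 by limma), and was well above background on 3 of the 4 arrays of Group C. With the normexp correction the difference of this dim probe was 0.34. Tnfrsf1a, the TNF receptor from which necroptosis is best known, was higher by 0.87 ± 0.20 (adjusted p = 0.093 by limma), with levels of 0.74 to 1.09 in Group C and 1.44 to 2.36 in Group M that did not overlap. Tlr3, a receptor of double-stranded RNA that can engage RIPK3, was lower, at -1.11 ± 0.23 (adjusted p = 0.087 by limma), and its other probe gave -0.92. Genes that feed into Ripk3 thus stood on both sides of 0. The median difference of the list was -0.10.

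In Group D, 2 genes of this list were higher than in Group M and 6 lower, together 33.3%, beside 21.6% of all probes and 28.3% of the detected probes. Tnf itself was lower, at -1.64 ± 0.61 (adjusted p = 0.16 by limma) on the 11 arrays. Its log2 signal was -0.95, -1.29 and -1.30 in M5, M7 and M8 and -3.52 in M6, and in Group D it was -3.62, -2.97 and -3.62 in D9 to D11 and -0.86 in D12. The rats with the 4 highest levels of Tnf were those with the 4 highest of Ripk3, and C2 came next, at -1.62. Zbp1, a nucleic acid sensor that binds RIPK3, was lower, at -0.98 ± 0.39 (adjusted p = 0.19 by limma). Ripk4, a kinase of the same family known from keratinocytes and not from necroptosis, was higher by 0.98 ± 0.22 (adjusted p = 0.084 by limma). With D12 the difference of Zbp1 was -0.43 (with normexp, -0.41), and neither it nor Tnf was at the nominal threshold.

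Lower in Group D than in Group C were 3 genes of the list, Tlr3, Fas and Fadd. They were 12.5% of it, beside 5.98% of all probes and 7.08% of the detected probes in either direction. Fas, the death receptor that signals through caspase-8, was lower, at -0.55 ± 0.14 (adjusted p = 0.59 by limma), and its other probe, at -0.17, was not at the nominal threshold. Fadd, the adaptor between such receptors and caspase-8, was lower, at -0.31 ± 0.13 (adjusted p = 0.82 by limma), and Tlr3 at -0.61 ± 0.24 (adjusted p = 0.80 by limma).

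Of the sensors of other inflammasomes and the genes that act on them, 12 of 19 were measured, and 1 was higher and 2 lower in Group M vs Group C. This share, 25%, lay near the 22.7% of all probes and below the 30.2% of the detected probes. Naip5, of the family that binds bacterial flagellin and secretion proteins, had log2 signals of -1.86, -2.20, -2.72 and -3.81 in C1 to C4 and of -4.33, -4.17, -4.60 and -4.85 in M5 to M8. In Group D they were -2.95, -1.74 and -2.23 in D9 to D11 and -3.74 in D12. All 4 rats of Group M, M6 among them, were below every other rat. The difference was -1.84 ± 0.40 for Group M vs Group C (adjusted p = 0.090 by limma) and 2.18 ± 0.43 for Group D vs Group M (adjusted p = 0.072 by limma), and the criterion of the methods was met in both. Naip genes of rodents are close copies of each other, and a probe may read more than 1 of them.

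Mefv, which encodes pyrin, a sensor found in myeloid cells, was higher in Group M than in Group C by 1.14 ± 0.44 (adjusted p = 0.17 by limma) and lower in Group D than in Group M, at -1.36 ± 0.48 (adjusted p = 0.15 by limma). Its levels were high in C2, M5, M7, M8 and D12, from -0.12 to 0.56, and from -1.70 to -1.34 in the others. Its other probe gave 0.57 for Group M vs Group C, not at the nominal threshold, and -1.62 for Group D vs Group M, and was well above background on 4 of the 12 arrays. With all 12 arrays neither difference of Mefv was at the nominal threshold, and that of Group D from Group M was -0.90 ± 0.54. Casp4, a caspase that binds bacterial lipopolysaccharide, was lower in Group M than in Group C, at -0.42 ± 0.18 (adjusted p = 0.20 by limma). Against Group C, 0 genes of this list were at the nominal threshold of limma in Group D, and 0 met the criterion of the methods.

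**Figure D4:**
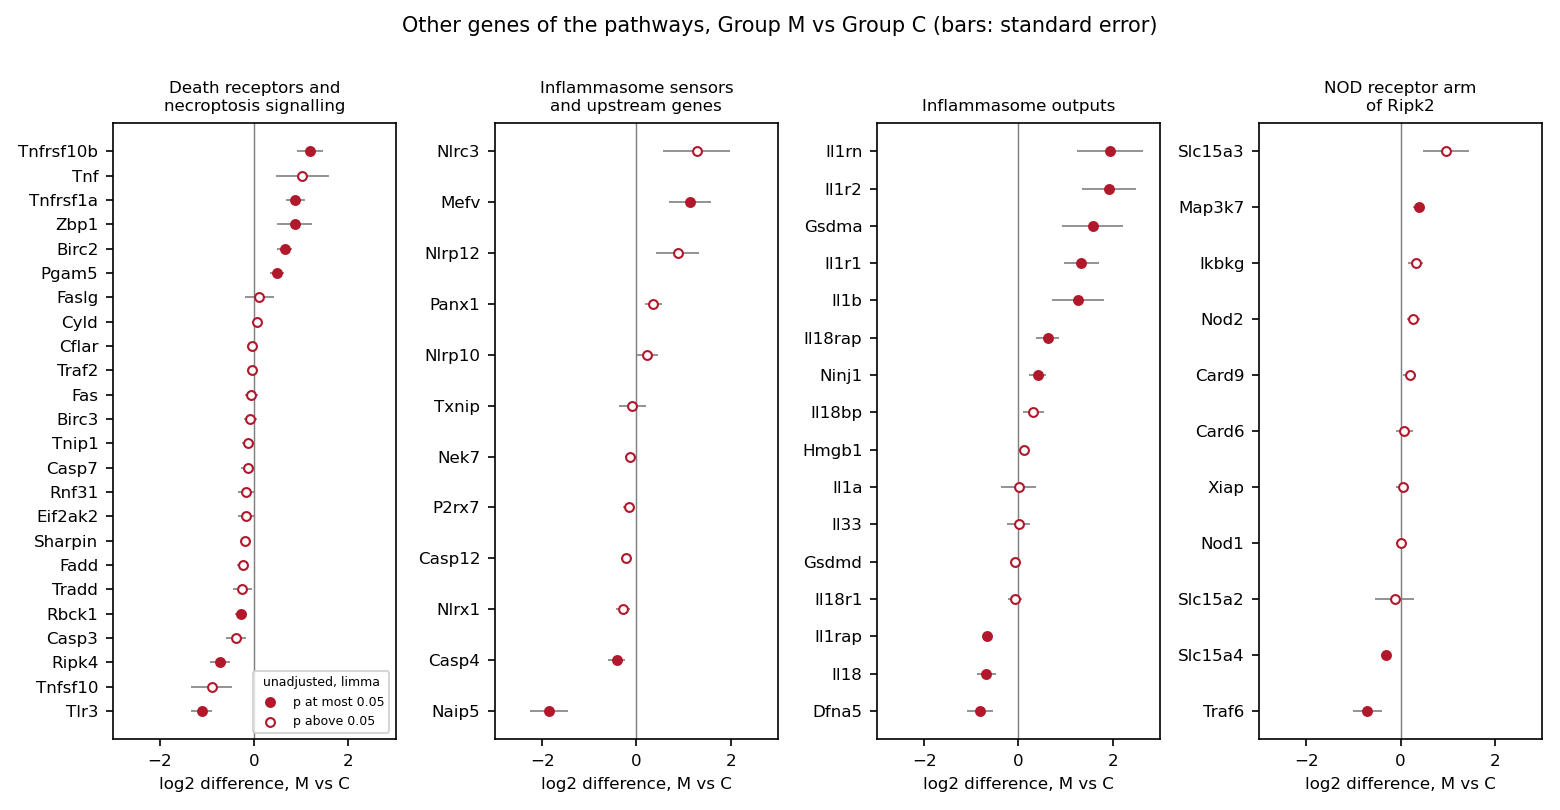
Log2 difference of Group M from Group C (horizontal axis) for the 63 measured genes of the 4 lists (vertical axis), with bars for the standard error by limma. Filled points are at the nominal threshold of 0.05 and open points above it. Il1rn and Il1r2 stand at the upper end of the inflammasome outputs and Naip5 at the lower end of the sensors.

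The genes of what follows an inflammasome, the interleukin-1 and interleukin-18 systems and the proteins that open the membrane, were all measured, 16 of 16, and in Group M vs Group C 7 were higher and 3 lower. At the nominal threshold these were 62.5%, beside 22.7% of all probes and 30.2% of the detected probes. Il1r2, a decoy receptor of interleukin-1, was higher by 1.92 ± 0.57 (adjusted p = 0.12 by limma). Higher too was Il1rn, the antagonist that blocks the signalling receptor of interleukin-1, by 1.94 ± 0.70 (adjusted p = 0.15 by limma). Il1r1, the signalling receptor, was higher by 1.33 ± 0.37 (adjusted p = 0.11 by limma), with groups that did not overlap, and was well above background on 3 of the 4 arrays of Group C. With the normexp correction the difference of Il1r1 was 0.41 and that of Il1rap, below, -0.30. Il1rap, the accessory chain of that receptor, was lower, at -0.67 ± 0.11 (adjusted p = 0.047 by limma), a change under 2-fold. Its levels were -5.17 to -4.87 in Group C and -5.78 to -5.44 in Group M, and its 2 other probes were not well above background on any array. With all 12 arrays its adjusted p was 0.20 by limma, and with 1 rat left out it passed only without C2 or M6 and was at most 0.17.

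The cytokines that caspase-1 matures lie outside the rule by which genes of the lists are named and were chosen after their values were seen. Il1b had log2 signals of -2.21, -1.20, -1.99 and -2.32 in C1 to C4, of -1.08, -1.94, 1.18 and -0.85 in M5 to M8, of -1.87 and -1.82 in D9 and D11, with D10 between D9 and C1, and of -0.30 in D12. Il18 had 2.60, 2.45, 2.84 and 2.80 in C1 to C4, 2.26, 2.46, 1.39 and 1.86 in M5 to M8, 2.61, 2.70 and 2.67 in D9 to D11 and 1.66 in D12. The rats M7, M8, M5 and D12 held the 4 highest levels of Il1b and the 4 lowest of Il18, as they did for Ripk3 and for Nlrp6. The difference of Group M from Group C was 1.26 ± 0.55 for Il1b (adjusted p = 0.21 by limma) and -0.68 ± 0.21 for Il18 (adjusted p = 0.12 by limma).

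Compared with Group M, 3 of the 16 genes were higher in Group D and 6 lower, together 56.2%, beside 21.6% of all probes and 28.3% of the detected probes. Il1rap was higher by 0.74 ± 0.12 (adjusted p = 0.048 by limma), with D9 to D11 at -4.96 to -4.90, and with all 12 arrays its adjusted p was 0.36 by limma. Il1r2 was lower, at -1.93 ± 0.61 (adjusted p = 0.13 by limma), Il1rn at -1.88 ± 0.76 (adjusted p = 0.19 by limma) and Il1r1 at -1.25 ± 0.40 (adjusted p = 0.13 by limma). D12 stood on the other side at each of these genes, at -5.88 for Il1rap and at -1.40, 1.69 and -4.92 for Il1r2, Il1rn and Il1r1, and with all 12 arrays the differences of Il1r2 and Il1rn, -1.39 and -1.30, were no longer at the nominal threshold. Compared with Group C, 1 gene was lower in Group D, which is 6.25% of the list, beside 5.98% of all probes in either direction. It was Hmgb1, a nuclear protein that dying cells release, at -0.36 ± 0.12 (adjusted p = 0.72 by limma), and its other probes gave 0.011 and 0.18.

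Of the NOD receptor genes that act with Ripk2, 11 of 15 were measured, and 1 was higher and 2 lower in Group M vs Group C. This share, 27.3%, lay between the 22.7% of all probes and the 30.2% of the detected probes. Map3k7, the kinase TAK1 below RIPK2, was higher by 0.38 ± 0.12 (adjusted p = 0.13 by limma). Traf6, a ubiquitin ligase of the Toll-like and interleukin-1 receptors, was lower, at -0.71 ± 0.31 (adjusted p = 0.20 by limma), and Slc15a4, a lysosomal carrier of peptides, at -0.31 ± 0.10 (adjusted p = 0.13 by limma). Compared with Group M, 1 was higher in Group D and 3 lower, together 36.4%, beside 21.6% of all probes and 28.3% of the detected probes. Slc15a4 was higher by 0.43 ± 0.11 (adjusted p = 0.099 by limma). Slc15a3, a related carrier, was lower, at -1.56 ± 0.53 (adjusted p = 0.14 by limma), with D9 to D11 at -2.62 to -2.26 and D12 at 0.19. Also lower was Ikbkg, the regulatory subunit of the kinase that activates NFkB, at -0.38 ± 0.17 (adjusted p = 0.22 by limma). With all 12 arrays the difference of Slc15a3 was -0.91 ± 0.67 and that of Ikbkg -0.23 ± 0.19, and neither was at the nominal threshold. Ikbkg lost it also with quantile normalization, at -0.27. In the comparison of Groups D and C, 0 of the 11 were at the nominal threshold of limma and 0 met the criterion of the methods.

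The summed levels of immune cell markers moved with these genes between the rats, though not every single marker did. The level of a cell type is the log2 of the summed signals of its markers, relative to the same percentile. For B cells, 5 of 6 markers were measured, and the level was between 2.30 and 3.87 in C2, M5, M7, M8 and D12 and between -3.02 and -0.60 in the 7 other rats. The ranges were -2.12 to 2.56 in Group C, -1.80 to 3.16 in Group M and -3.02 to -0.60 in D9 to D11. The rats with the 4 highest levels of Ripk3 were among these 5, and C2, which held the highest level of Ripk3 in Group C and the lowest of Nlrp6, was the other. For T cells, with 7 of 7 markers, the same 5 rats had levels of 1.58 to 3.23 and the others -0.62 to 0.25. The T cell marker Cd4 was at -3.90 in M7 and -3.74 in M8, and at -3.76 to -3.34 in Group C. Between Groups M and C, 0 of the 5 B cell and 0 of the 7 T cell markers were at the nominal threshold of limma, where 22.7% of all probes were. In Group D, 2 B cell markers and 1 T cell marker were lower than in Group M at that threshold.

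For neutrophils, 6 of 7 markers were measured, and the level was 0.058, -1.88, 2.27 and 0.11 in M5 to M8, -2.18 to -0.69 in Group C, -2.16 to -2.01 in D9 to D11 and -0.80 in D12. The marker Csf3r was well above background in M5, M7 and M8 alone, and Mmp8 in these 3 rats and in D12. Mpo did not follow this pattern. It was at -6.41, -6.65 and -6.19 in M5, M7 and M8, within the -6.83 to -5.94 of Group C. In D12 it was at -6.86 and not well above background. Of the 6 markers 4 were higher in Group M than in Group C at the nominal threshold of limma, where 9.86% of all probes were higher, and 0 after adjustment. For monocytes and macrophages, with 8 of 8 markers, the level was 2.95 to 3.29 in Group C, 3.28 to 3.69 in Group M, 3.16 to 3.33 in D9 to D11 and 3.58 in D12, and the 4 highest were again M7, D12, M5 and M8. Of these 8 markers 3 were higher in Group M than in Group C at the nominal threshold of limma, beside 9.86% of all probes, and 0 after adjustment. At that nominal threshold 1 marker, Emr1, was lower, at -0.27 ± 0.12, where 12.9% of all probes were lower. In either direction 22.7% of all probes and 30.2% of the detected probes were at the threshold. The part of these cells in the levels of Ripk3, Pycard, Nlrp6 and the genes of the lists was not tested.

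For the epithelium, with 8 of 8 markers, the level was 8.14 to 8.38 in Group C, 8.15 to 8.72 in Group M, 8.22 to 8.54 in D9 to D11 and 8.03 in D12. At the nominal threshold of limma 3 markers were higher in Group M than in Group C and 0 lower. In either direction 22.7% of all probes and 30.2% of the detected probes were at that threshold. For goblet cells, with 6 of 6 markers, it was 6.99 to 7.93 in Group C, 7.37 to 7.60 in Group M, 6.85 to 7.72 in D9 to D11 and 6.35 in D12. The ranges of Groups C, M and D9 to D11 overlapped for both. In M7 and M8, in which Nlrp6 was low, the summed epithelial level was 8.72 and 8.42, above all rats of Group C. In M5 and D12, in which Nlrp6 was low too, that level was 8.15 and 8.03. Single epithelial markers went both ways. Krt18 was at 6.55 in M7 and 5.91 in M8, and at 4.86 to 5.15 in Group C. Lgals4 was lowest in M5, M7, M8 and D12, at 6.58, 6.71, 6.65 and 6.44. Vil1 was at 1.27, 1.11, 1.27 and 0.91 in these rats and at 1.15 in C2, below all other rats. The part of epithelial cells in the level of Nlrp6 was not tested. The levels of smooth muscle were 7.25 to 7.83 and those of endothelium 1.88 to 2.32 over the 12 rats. Enteric neurons and glia were at 1.55 to 1.93 in Groups C and M and at 2.04 to 2.08 in D9 to D11, and D12, at 1.81, lay with the former. Of their 7 markers 4 were higher and 1 lower in Group D than in Group M at the nominal threshold of limma, and 0 after adjustment. Of all probes 11.8% were higher and 9.85% lower there, and 28.3% of the detected probes were at the threshold in either direction. The glial marker Sox10 was at -2.18 to -1.48 in Group M and lower, at -2.64 to -2.13, in D9 to D11. Markers of the exocrine pancreas, an organ that a sample of colon should not hold, were summed to -4.52 to -3.45, with 5 of 6 measured. Cel was well above background on all arrays, at -4.98 to -3.64, and Pnlip in C1 alone. Cpa1, Cpb1 and Prss1 were not well above background on any array. At the nominal threshold of limma, 1 of the 5 was higher in Group D than in Group M, and 1 was higher in Group D than in Group C. Of all probes 11.8% and 3.15% were higher in these comparisons.

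**Figure D5:**
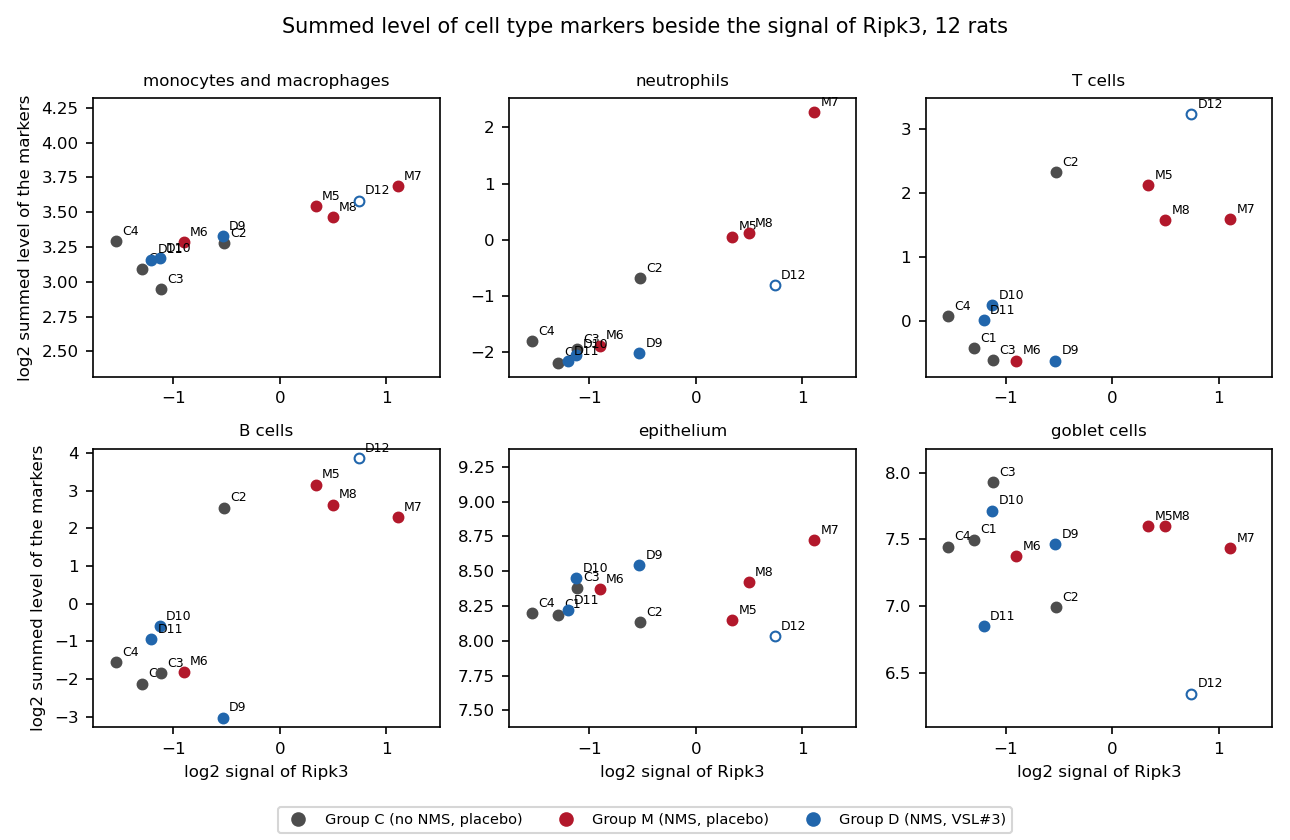
Log2 summed level of the markers of 6 cell types (vertical axes) beside the log2 signal of Ripk3 (horizontal axis), 1 point per rat and a colour per group, with D12 open. The rats M5, M7, M8 and D12 lie to the right and, with C2, at the top for B and T cells; the levels of epithelium and goblet cells of the groups overlap.

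The genes whose levels ran most like those of Ripk3 over the 12 rats were sought among 10538 named genes that were well above background on all arrays. The highest Pearson correlations were 0.989 for Rnps1, 0.986 for Pgf, 0.985 for Zfand2a, 0.984 for Nop58 and 0.982 for Pak1ip1. The lowest were -0.992 for Slc25a16, -0.987 for Chpt1, -0.986 for Dnajc14, -0.985 for Txndc15 and -0.983 for Ndrg2. Without D12 these correlations were 0.982 to 0.988 and -0.991 to -0.980. Among the members, Nlrp6 was at -0.94 and Pycard at -0.92, the ranks 10216 and 9959 of the 10538 genes from the highest. Casp8 was at 0.81, which is rank 1181, and Casp1 at -0.61. Ripk1 and Ripk2 were at 0.041 and -0.093, and at -0.29 and -0.26 without D12. The genes share the array and the tissue composition of each rat and the separation of M5, M7, M8 and D12 from the others, and the correlations are given as a description.

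Zfand2a, a gene known from the heat shock response, gives the pattern in values. Its log2 signal was 0.28, 0.75, 0.35 and -0.04 in C1 to C4, 1.63, 0.80, 2.68 and 1.79 in M5 to M8, 0.79, 0.28 and 0.21 in D9 to D11 and 2.48 in D12. Slc25a16, a mitochondrial carrier at the other end, was at 0.27, -0.06, 0.11 and 0.29 in C1 to C4, at -0.33, 0.12, -0.57 and -0.35 in M5 to M8, at -0.11, 0.16 and 0.18 in D9 to D11 and at -0.51 in D12. In both, M5, M7, M8 and D12 stood apart from the 8 other rats.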

How the data were processed

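Colonic RNA of 12 rats was measured on 1-colour arrays. Per the file headers, the intensities deposited for each array were made by Agilent Feature Extraction 10.5.1.1 with background subtraction, and were not normalized between arrays. The authors' matrix of log2 values, which is quantile normalized, served as an alternative. Here the log2 intensities were set relative to the 75th percentile of each array, control spots and outlier spots were left out, and spots of a probe were averaged. Groups were taken from the labels. The 11 arrays of the 3 groups entered one linear model (limma 3.58.1 in R 4.3.3, lmFit with eBayes), and p values were adjusted by Benjamini-Hochberg over 30367 probes. On every array 20305 probes were well above background, and 5941 were so on none. The signal takes the place of depth, and the number of arrays limits the precision. The analysis of variance with a Tukey test that the paper's methods state was run on the same values.

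The members, lists, tests and alternatives were chosen with earlier results of these data known. Genes named from a list are, per comparison, those with an adjusted p of at most 0.05 and the 3 largest differences at a nominal p of 0.05 or less, if well above background on every array of a compared group. The genes most like Ripk3 are the 5 with the highest and the 5 with the lowest correlation. Gene names are those of the files. The procedure was also run on simulated data with independent normal noise at each probe. Such data lack the differences between rats that many probes share here, so that run does not bear on the calls.

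As alternatives were run all 12 arrays, normexp (offset 50) in place of the background subtraction, quantile normalization, a shift to the array median, the authors' matrix, outlier spots kept, a filter on dim probes, the replicate number as a block, array weights, only the 2 compared groups, the analysis of variance with the Tukey test, and each rat left out. Tables were read with the R package data.table (version 1.17.8).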

Additional observations from a re-analysis of the deposited data

Results flagged for a closer look

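Of 90 groups of 4 rats tested for a rat that stands apart, over the probes of the members and of the genes named from the lists, 12 held one by Dixon's ratio (the gap to the nearest rat over the whole range). For independent probes that were not selected, chance flags about 1 in 20 groups. The members were chosen with results known, and the genes of the lists by limma on the arrays without D12. That rate is therefore no baseline for these 12, and whether they exceed chance was not tested. D12 stood apart within Group D at 4 probes, namely Nlrp6 with a ratio of 0.931 (low), Il1rap with 0.933 (low), Mefv with 0.927 (high) and Slc15a3 with 0.87 (high). M6 stood apart within Group M at 3 probes, Tnf with 0.866 (low), Slc15a3 with 0.891 (low) and Ripk4 with 0.896 (high). C2 stood apart within Group C for Mefv with 0.886 and for Tnf with 0.852, high in both. C4 was low within Group C for Tnfrsf10b, with 0.853, and for Slc15a4, with 0.883. D9 was low within Group D for the Ripk1 probe A_44_P156830, with 0.864.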

How the results depend on the processing

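Over the alternatives, no difference at the nominal threshold changed sign. The log2 difference of Ripk3 was 1.32 to 1.61 in Group M vs Group C, and -1.41 to -0.79 in Group D vs Group M, where the value nearest 0, under 2-fold, was that of all 12 arrays. In Group M vs Group C, where 0 of the 9 probes were called, array weights gave 3 and the analysis of variance with the Tukey test 2, and leaving out a rat gave 0 to 3 (3 without M6). In Group D vs Group M the same alternatives gave 3 and 2, and leaving out a rat 0 to 3. The 24 pathway genes at the unadjusted threshold in Group M vs Group C became 42 with array weights and 5 by the methods' criterion, and 14 to 37 with a rat left out (14 without C1, C3 or M7, 37 without M6). In Group D vs Group M the 24 became 10 with all 12 arrays and 1 by the methods' criterion. In Group D vs Group C the 4 became 2 with a shift to the array median and 0 by the methods' criterion, and 2 to 4 with a rat left out (2 without C3). The causes were not tested. The shift to the array median moved the median difference of all probes in Group D vs Group M to 0.11. For the members other than Ripk3, a value counted as the same if it shifted by less than the pooled SD within groups, whatever its sign. For the genes named from the lists, it counted as the same if it kept its sign and the threshold it had passed. By these rules 486 values were the same under the other settings, 40 lost the threshold and 4 moved. With a rat left out 512 were the same and 71 lost the threshold. Il1rap, the gene of the lists that passed adjustment, lost it in both comparisons with all 12 arrays, normexp, the replicate block, only 2 groups and each rat left out other than C2 and M6, and between Groups M and C also with a shift to the array median (adjusted p = 0.053 by limma).

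The replicate numbers of the labels name no shared litter or batch, and the main fit did not use them. The deviations of same-numbered rats correlated between -0.72 and 0.58, over 0.1 in 3 of 12 pairs. With so few rats per group these values cannot show whether the numbers pair rats. With the replicate number as a block the pathway genes in Group M vs Group C were 15, and the difference of Ripk3 was 1.38 ± 0.44.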
